A study of Mus musculus with 13 samples.

Results

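The levels of 10 chemokine genes were described in CD4+ T lymphocytes from BDC2.5 mice, a strain on the diabetes-prone NOD background in which transgenes give the T cells a receptor for a beta cell antigen. The genes were Ccl1, Ccl3, Ccl4, Ccl5, Ccl17, Ccl20, Ccl22, Xcl1, Cxcl10 and Cxcl16, chosen by name with earlier results of these data known. Counts of members called below are therefore descriptive. In the deposited count table, 10 of 10 were found among the 55774 gene entries. All 10 passed the filter on low counts that left 15781 genes for testing. Because a gene passes that filter when 1 group is high enough, passing was no finding about these genes.

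Bulk RNA was sequenced from 13 libraries. Naive CD4+ T cells came from the spleen of female mice of strain NOD/ShiLtJ that carried the transgene Tg(TcraBDC2.5,TcrbBDC2.5)1Doi, which every group shared. In 4 libraries the T cells were alone, labelled untreated. In 4 they had been kept for 96 hours with islet macrophages of NOD mice given control buffer (control-macrophage co-culture), and in 5 with islet macrophages of NOD mice given a single low dose of streptozotocin (STZ, a toxin that enters and kills beta cells; STZ-macrophage co-culture). Donors of the macrophages received their injection when 4 weeks old, islets followed 10 days later at 5.5 weeks, and macrophages were enriched on magnetic beads, so that other islet cells could accompany them. From the co-cultures, T cells were sorted as live and positive for CD45, Thy1.2 and CD4. The labels do not give the age of the T cell donors, nor whether cells alone were cultured. Libraries carry a batch label, day 1 or day 2, whose meaning the labels do not give. The 4 libraries of cells alone, control-macrophage replicates 1, 2 and 4 and STZ-macrophage replicates 1 and 5 were of day 1. Control-macrophage replicate 3 and STZ-macrophage replicates 2, 3 and 4 were of day 2.

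Chemokines are small secreted proteins that guide leukocytes through G protein-coupled receptors. In islet inflammation they draw T cells and myeloid cells towards the beta cells, and activated T cells secrete several of them. CCL3, CCL4 and CCL5 are inflammatory chemokines, and CCL3 and CCL5 bind CCR1. CCL1 binds CCR8, CCL17 and CCL22 bind CCR4, CCL20 binds CCR6, XCL1 binds XCR1, CXCL10 binds CXCR3, and CXCL16, a membrane-anchored chemokine that is shed by a protease, binds CXCR6. Macrophages are themselves known producers of CCL3, CCL4, CCL5, CCL17, CCL20, CCL22, CXCL10 and CXCL16, whereas XCL1 is mainly a lymphocyte product and CCL1 is made by activated T cells and some myeloid cells. RNA of macrophages carried through the sort could therefore supply most members, and macrophage markers are given beside the results.

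Several members are neighbours in the genome. In the GENCODE annotation of GRCm38, Ccl22 lies at chr8:94745590-94751699 and Ccl17 at chr8:94810453-94812036, both on the plus strand and 58.8 kb apart. Ccl3 (chr11:83647844-83649355, minus strand) and Ccl4 (chr11:83662584-83664683, plus strand) are 13.2 kb apart, with Ccl5 (chr11:83525778-83530518, minus strand) 117.3 kb before Ccl3. Ccl1 is at chr11:82176657-82305690 and Cxcl16 at chr11:70453983-70459984, both on the minus strand. Ccl20 is at chr1:83116766-83119167 (plus), Xcl1 at chr1:164931644-164935527 (minus) and Cxcl10 at chr5:92346638-92348889 (minus). All 10 are protein coding. Exons of genes on the opposite strand cover 18.7% of the exonic bases of Xcl1 (Gm20743), 18.3% of Cxcl16 (Zmynd15) and 5.91% of Cxcl10 (Art3). The library kit does not keep the strand, so reads in these stretches cannot be assigned to one gene or the other.

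The promoters of 3 members are shown because Ccl22 and Ccl17 were the neighbouring CCR4 ligands whose group means were both higher with STZ macrophages, although only Ccl22 was called, while Cxcl10 was the member with the most motif matches. Sequences are from RefSeq (GRCm38.p6), read 5′ to 3′ on the gene's strand and ending at the base before the first exon of the GENCODE annotation. Capitals mark matches, on either strand, to 4 motifs of inflammatory transcription factors: the NF-kB consensus, AP-1 (TGANTCA), the interferon-stimulated response element (GAAANNGAAA) and STAT (TTCNNNGAA).
Ccl22, chr8:94745434-94745589, plus strand: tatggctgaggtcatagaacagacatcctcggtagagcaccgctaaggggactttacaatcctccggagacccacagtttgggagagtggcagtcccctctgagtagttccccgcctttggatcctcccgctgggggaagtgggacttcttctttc
Ccl17, chr8:94810233-94810452, plus strand: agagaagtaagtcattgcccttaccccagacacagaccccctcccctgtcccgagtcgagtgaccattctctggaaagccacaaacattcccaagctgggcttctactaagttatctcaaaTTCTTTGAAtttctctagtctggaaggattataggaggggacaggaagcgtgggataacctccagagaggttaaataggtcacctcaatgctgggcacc
Cxcl10, chr5:92348890-92349109, minus strand: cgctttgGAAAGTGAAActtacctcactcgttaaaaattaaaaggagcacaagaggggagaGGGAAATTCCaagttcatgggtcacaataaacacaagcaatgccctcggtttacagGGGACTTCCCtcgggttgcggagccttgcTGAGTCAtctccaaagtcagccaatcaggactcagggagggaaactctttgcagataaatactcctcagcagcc
A RefSeq window was matched by symbol for 7 members, and the 250 bases before the start were searched in each, of which the stretches above are a part. Cxcl10 held 2 NF-kB matches, 1 AP-1 match and 1 interferon-response match, Ccl17 held 1 STAT match, and Ccl20 held 1 NF-kB match. The windows of Ccl1, Ccl3, Ccl22 and Xcl1 held none of these letters. Among 32851 such windows in the table, 3.9% held the NF-kB motif, 6.75% AP-1, 2.98% the interferon-response element and 7.02% STAT. A match is a stretch of letters only, and its absence says nothing of the factor.

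Library totals ran from 17312100 to 61267800 counts, and 3 counts corresponded to 0.0493 to 0.133 CPM (counts-per-million after TMM correction for RNA composition). T cell genes were abundant, with Cd3e between 922 and 2175 CPM and Cd4 between 515 and 1226 CPM in the 13 libraries. Summed over 11 T cell genes, the level was 10031 to 16968 CPM with control and 7818 to 10374 CPM with STZ macrophages. Between these groups 10 of the 11 had a negative log2 difference, with a median of -0.53 beside -0.13 for all genes. By edgeR 0 were called, and 9 had an unadjusted p below 0.05, as had 22.8% of all genes. Of 25 macrophage markers, Vsig4 had no count in any library, and 4 had none in cells alone. Their summed level was 3.81 to 18.8 CPM in cells alone, 10.7 to 77.5 CPM in control-macrophage and 37.3 to 158 CPM in STZ-macrophage co-cultures. Lyz2, a lysozyme gene of macrophages, was at 0 in 3 libraries of cells alone and at 0.146 CPM in the other, and reached 45.7 CPM in STZ-macrophage replicate 3. Of the dendritic cell markers, Clec9a, Cd209a and Cd207 had no count and Flt3 was at most 0.844 CPM. Of 3 tested, 2 were called higher and 1 lower with both macrophage groups than in cells alone. The higher ones were Cd83, from at most 0.133 CPM to 0.494 to 6.42 CPM, and Cacnb3, from at most 0.800 CPM to 1.45 to 5.79 CPM. Activated T cells can also express these 2 genes. The lower one was Zbtb46, at 1.38 to 8.66 CPM in cells alone and 0.277 to 1.45 CPM in co-culture. Ncr1 of natural killer cells was at 0 except in STZ-macrophage replicate 3 (0.324 CPM), and Cd8a lay between 0 and 9.29 CPM. Cd8b1, of the same marker list, was present in every library, at 15.7 to 36.4 CPM in cells alone and 10.4 to 23.4 CPM in co-culture. Of 6 tested CD8 and natural killer markers, 3 were called higher and 1 lower with control macrophages than in cells alone, and 2 higher and 2 lower with STZ macrophages. Over all genes, 23.1% were called higher and 22.0% lower with control macrophages, and 20.8% and 22.3% with STZ macrophages. Klrk1 rose from at most 1.33 CPM to 4.03 to 95.5 CPM in co-culture, whereas Klrd1 was at 51.3 to 106 CPM in cells alone and 12.3 to 58.2 CPM in co-culture. B cell markers summed to 723 to 1675 CPM in cells alone, 594 to 767 CPM with control and 150 to 198 CPM with STZ macrophages. Most of this was Ighm, the immunoglobulin heavy chain gene, the 1 of 5 tested that was called between STZ and control macrophages (log2 difference -1.99, SE 0.24, adjusted p = 0.00870 by edgeR), beside 0.171% of all genes called lower. Islet endocrine RNA summed to 162 CPM in STZ-macrophage replicate 2, 142 CPM in replicate 4 and at most 3.24 CPM elsewhere. In bulk RNA, fewer cells of a type and less RNA per cell cannot be told apart. Nothing in the labels beyond "biological replicate" says how the cultures were separated, so p-values measure the spread between these libraries.

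Most members were nearly silent in the T cells alone and present after co-culture with either kind of macrophage. Ccl1, Ccl4, Ccl17, Ccl20, Ccl22 and Xcl1 had no count in any of the 4 libraries of cells alone. In control-macrophage co-culture 7 of 10 members were called higher than in cells alone, with edgeR's quasi-likelihood test at a Benjamini-Hochberg adjusted p below 0.05, and none lower. Over all genes tested, 23.1% were called higher and 22.0% lower in that comparison. In STZ-macrophage co-culture 8 of 10 were called higher and none lower, against 20.8% and 22.3% of all genes. Both comparisons share the cells alone as control. The median fold over the 10 members, with the 6 genes at 0 set to their lower bound, was 49.6 in control-macrophage and 125 in STZ-macrophage co-culture. The median log2 change of all genes tested, with day in the fit, was -0.13 and -0.05, respectively. Folds here and below pool counts over both days, whereas the adjusted p beside them come from the fit with a day term. Day 2 held 3 of the 5 STZ-macrophage and 1 of the 4 control-macrophage libraries, so the folds of the 2 groups differ in their mix of days. With day in the fit, the members' median log2 difference between STZ and control macrophages was 0.26, beside -0.13 for all genes. Control-macrophage replicate 3 carried much of several folds: without it Ccl3 was 77.2-fold higher than in cells alone, and the bounds were 11.5 for Ccl20, 20.1 for Ccl22 and 65.7 for Xcl1. Every bound given below was lower without cells-alone replicate 3, the deepest library of its group, such as 328 in place of 492 for Ccl1 with control macrophages.

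**Figure D1:**
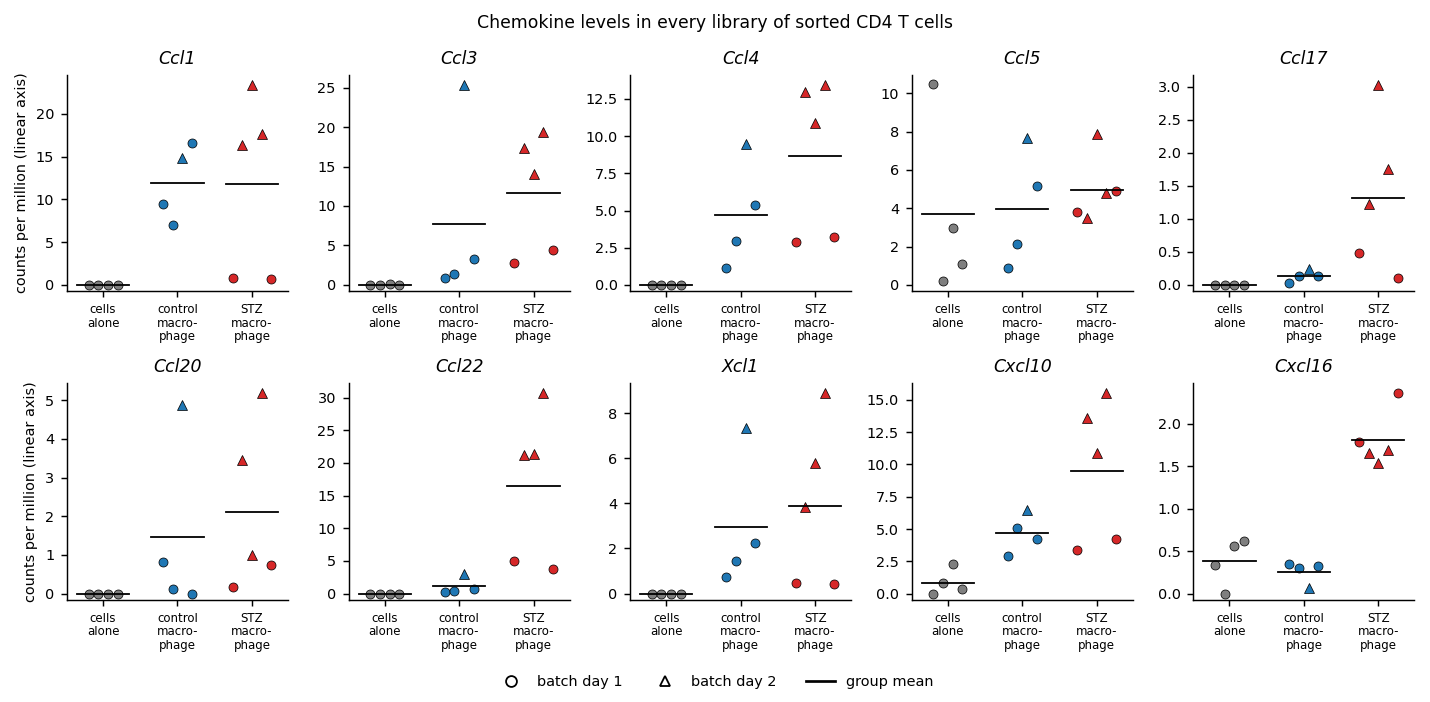
Level in CPM (linear axes) of each chemokine in the 13 libraries; circles are batch day 1, triangles batch day 2, and lines are group means. Ccl22 in STZ-macrophage co-cultures sits between 3.83 and 30.7, above every other library, and the triangles are the higher points of most members.

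The inflammatory chemokines Ccl3 and Ccl4 had the highest mean level per kilobase of exon in both co-cultures, although without control-macrophage replicate 3 Ccl3 ranked behind 4 other members there. The ranking depends on the lengths, which join all annotated exons of a gene (2.37 kb for Ccl1, 0.766 kb for Ccl3 and 0.660 kb for Ccl4). By mean CPM alone, Ccl1 was highest with control macrophages (11.9) and Ccl22 with STZ macrophages (16.4). Ccl3 was at 0 in 3 libraries of cells alone and at 0.0671 CPM in the other. It was at 0.896, 1.35 and 3.30 CPM in the day 1 control-macrophage co-cultures and at 25.4 CPM in the day 2 one. With STZ macrophages it was at 2.72 and 4.46 CPM on day 1 and at 17.4, 14.1 and 19.3 CPM on day 2. The 2 co-cultures overlapped, and within each the day 2 libraries were high. Pooled counts gave a ratio to cells alone of 302 (exact 95% counting interval 103 to 1465) with control and 522 (178 to 2534) with STZ macrophages, at adjusted p of 6.97e-05 and 5.21e-05 by edgeR. Between the 2 co-cultures the log2 difference was 0.32 (SE 0.54, adjusted p = 0.727).

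Ccl4, a close relative of Ccl3, was likewise higher in the day 2 libraries. It was at 1.14, 2.94 and 5.38 CPM in the day 1 control-macrophage co-cultures and 9.44 CPM in the day 2 one. With STZ macrophages it was at 2.89 and 3.22 CPM on day 1 and at 12.97, 10.9 and 13.5 CPM on day 2. Against a floor of 3 counts over the cells alone, this was at least 199-fold higher with control macrophages and at least 393-fold higher with STZ macrophages (adjusted p 1.60e-05 and 1.83e-05). The co-cultures overlapped, with a log2 difference of 0.12 (SE 0.47, adjusted p = 0.884).

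Ccl5 (RANTES), which memory and effector T cells store and release, was the 1 member with counts in every library of cells alone, and it varied widely among them. Its levels there were 10.5, 0.222, 2.95 and 1.11 CPM. In co-culture they ranged from 0.861 to 7.65 CPM with control macrophages and from 3.47 to 7.90 CPM with STZ macrophages. All 3 groups overlapped, and no comparison called it. The log2 difference was -0.23 (SE 0.91, adjusted p = 0.850) for control macrophages and -0.03 (SE 0.92, adjusted p = 0.980) for STZ macrophages against cells alone.

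Xcl1 encodes lymphotactin, a lymphocyte chemokine that attracts cross-presenting dendritic cells. It was at 0.758, 1.43 and 2.24 CPM in day 1 control-macrophage co-cultures and 7.34 CPM in the day 2 one. With STZ macrophages it was at 0.490 and 0.416 CPM on day 1 and at 3.83, 5.78 and 8.88 CPM on day 2. On day 1 the STZ libraries lay below all 3 control libraries, and on day 2 the control library lay among the STZ ones. In pooled counts it was at least 121-fold higher with control and at least 164-fold higher with STZ macrophages than in cells alone (adjusted p 6.12e-05 and 2.69e-04 by edgeR). With day in the fit, the log2 difference between co-cultures was -1.16 (SE 0.57, adjusted p = 0.249).

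Ccl1, a ligand of CCR8 made by activated and type 2 helper T cells, separated the day 1 libraries by donor treatment. It was at 9.40, 7.03 and 16.6 CPM in the day 1 control-macrophage co-cultures, and at 0.760 and 0.693 CPM in the day 1 STZ-macrophage co-cultures. On day 2 it was at 14.8 CPM with control macrophages and at 16.3, 23.4 and 17.7 CPM with STZ macrophages. The 2 groups therefore did not overlap within day 1, where STZ was lower, and overlapped when the days were pooled. When each group had its own mean on each day, Ccl1 was called lower with STZ macrophages within day 1, at a log2 difference of -3.91 (SE 0.55, adjusted p = 0.0374), beside 0.0444% of all genes called lower there. In a fit of the day 1 libraries alone the difference was -3.74 and not called (adjusted p = 0.197). Within day 2, where the control group is 1 library assumed to vary like the others, the difference was 0.37 (SE 0.59, adjusted p = 0.844). The effect differed between days by 4.28 on the log2 scale (SE 0.85), which was not called by edgeR (adjusted p = 0.248); DESeq2 called it (adjusted p = 4.03e-05). Over all genes, edgeR called 0.00% for a higher and 0.00634% for a lower difference on day 2 than on day 1, and no member. At an unadjusted p below 0.05, 1 member of 10 passed, Ccl1, as did 9.82% of all genes. With day as a term over all libraries the log2 difference was -2.68 (SE 1.00, adjusted p = 0.179). Without control-macrophage replicate 3, the single day 2 control, it was -3.74 (adjusted p = 0.0342), with no day term it was -0.02 (adjusted p = 0.995), and over all alternatives the adjusted p ran from 0.0102 to 0.995. The day 1 libraries with less Ccl1 held more summed macrophage RNA (37.3 and 40.6 CPM against 10.7 to 16.2 CPM in the day 1 controls). On day 2, the control library with 14.8 CPM of Ccl1 held 77.5 CPM of macrophage markers. The STZ libraries with 16.3, 23.4 and 17.7 CPM of Ccl1 held 45.7, 141 and 158 CPM of them. Which cells supplied the Ccl1 RNA was not tested. Against cells alone Ccl1 was at least 492-fold higher with control and at least 520.2-fold higher with STZ macrophages (adjusted p 9.52e-05 and 0.00116).

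Ccl22, one of the CCR4 ligands, was the member with the clearest difference between STZ and control macrophages. It was at 0.276, 0.411 and 0.692 CPM in the day 1 control-macrophage co-cultures and at 3.02 CPM in the day 2 one. With STZ macrophages it was at 4.97 and 3.83 CPM on day 1 and at 21.3, 21.4 and 30.7 CPM on day 2. Every STZ library was above every control library, on both days and when the days were pooled. The log2 difference was 3.16 (SE 0.39, adjusted p = 0.0199 by edgeR). Ccl22 was thus the 1 member of 10 called higher, beside 0.152% of all genes called higher and 0.171% called lower. Within day 1 the difference was 3.25 (SE 0.49, adjusted p = 0.0518) and within day 2 3.01 (SE 0.72, adjusted p = 0.155), with no difference between days called (-0.24, SE 0.74, adjusted p = 1.00).

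The size of the Ccl22 difference held when single libraries were left out, from 3.01 to 3.54, but its call did not. The adjusted p exceeded 0.05 without control-macrophage replicate 1 (0.0630), 2 (0.0714) or 4 (0.0583), and without STZ-macrophage replicate 1 (0.123), 2 (0.0532), 4 (0.0672) or 5 (0.124). It was 0.193 without both libraries rich in islet endocrine RNA (log2 difference 3.30), 0.178 with no day term (3.90) and 0.251 in day 1 libraries alone (3.42). Over all alternatives the adjusted p ran from 2.71e-17, by DESeq2, to 0.554.

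Against cells alone, Ccl22 was at least 44.5-fold higher with control macrophages and at least 725-fold higher with STZ macrophages (adjusted p 3.94e-05 and 3.07e-06). Summed macrophage markers moved with both the STZ groups and day 2, as Ccl22 did. Set against them, Ccl22 was 2.55 to 4.28 CPM for each 100 CPM of summed macrophage markers in control-macrophage and 9.41 to 46.6 in STZ-macrophage co-cultures, and these ranges did not overlap. Per CPM of Lyz2 it was 0.121 to 0.269 and 0.468 to 1.92. Set against Csf1r, another macrophage marker, the groups overlapped. Control-macrophage replicate 3 had 3.02 CPM of Ccl22 beside 0.617 CPM of Csf1r. STZ-macrophage replicates 1 and 5 had 4.97 and 3.83 CPM of Ccl22 beside 1.13 and 2.11 CPM of Csf1r. Single markers could differ more widely than their sum, such as Mertk, which had no count in the 4 control-macrophage libraries and was at 0.123 to 0.721 CPM in the STZ-macrophage ones. Ighm also separated the groups, at 593 to 764 CPM with control and 148 to 195 CPM with STZ macrophages. Which cells supplied the Ccl22 RNA was not tested.

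**Figure D2:**
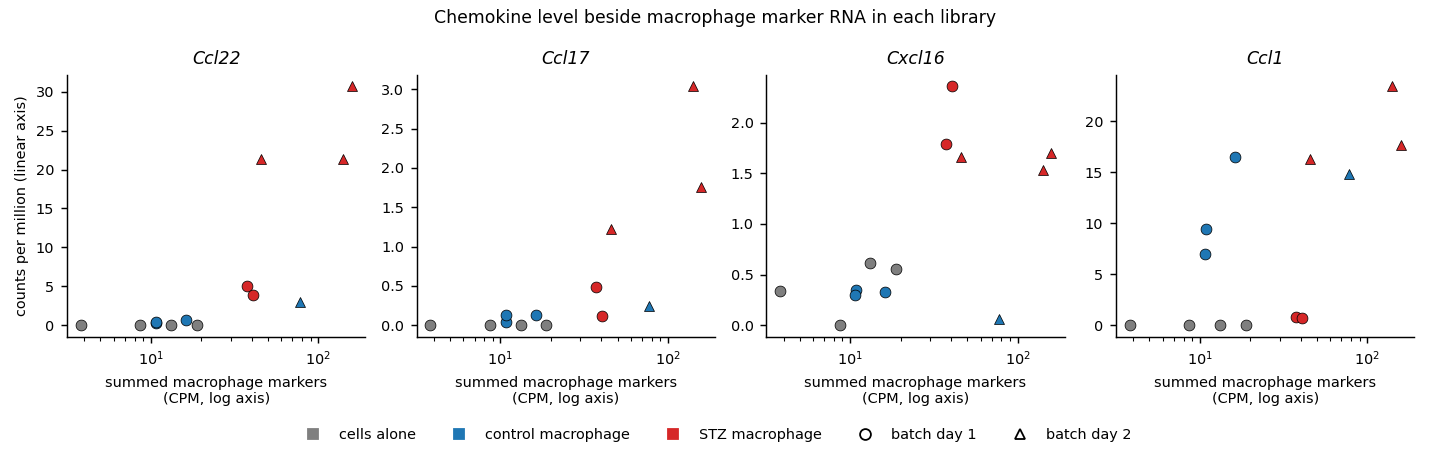
Level in CPM of Ccl22, Ccl17, Cxcl16 and Ccl1 (linear axes) against the summed level of 25 macrophage markers (CPM, log axis) in each library; colours are groups and shapes are batch days. The day 2 control-macrophage library, at 77.5 CPM of markers, has 3.02 CPM of Ccl22, below the day 1 STZ-macrophage libraries, which have 37.3 and 40.6 CPM of markers.

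Ccl17, the other CCR4 ligand and the neighbour of Ccl22, was low throughout. Its levels were 0.0344, 0.131 and 0.132 CPM in day 1 control-macrophage co-cultures and 0.247 CPM in the day 2 one, close to the level of 3 counts. With STZ macrophages they were 0.490 and 0.111 CPM on day 1 and 1.22, 3.04 and 1.76 CPM on day 2. STZ-macrophage replicate 5 overlapped the controls, and the other 4 were above them. The log2 difference was 2.09 (SE 0.83, adjusted p = 0.192), and it was called only in a fit of the 9 co-cultures alone (2.32, adjusted p = 0.049998), in which 10.1% of all genes were called higher. It was at least 6.14-fold and at least 56.6-fold higher than in cells alone with control and STZ macrophages (adjusted p 0.0114 and 0.00180). Per 100 CPM of macrophage markers it overlapped, at 0.318 to 1.23 with control and 0.273 to 2.67 with STZ macrophages.

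Cxcl16, the anchored ligand of CXCR6, was the other member whose STZ and control libraries did not overlap. It was at 0.344, 0.296 and 0.330 CPM in day 1 control-macrophage co-cultures and 0.0617 CPM in the day 2 one. With STZ macrophages it was at 1.79 and 2.36 CPM on day 1 and at 1.66, 1.53 and 1.70 CPM on day 2, so that its day 2 libraries were not the high ones. Thus 2 of 10 members were higher with no overlap, as were 2.46% of all genes. The log2 difference was 3.24 (SE 0.87), which edgeR did not call (adjusted p = 0.132). DESeq2 (adjusted p = 2.27e-04), the fit of the 9 co-cultures alone (3.32, adjusted p = 0.00576) and the fit without cells-alone replicate 2 (3.40, adjusted p = 0.0122) called it, and the adjusted p reached 0.554 over the alternatives. In cells alone it was at 0.338, 0, 0.559 and 0.615 CPM. Only the STZ group was called against those (2.77, SE 0.89, adjusted p = 0.0235), a call lost without STZ-macrophage replicate 5 (adjusted p = 0.0722). The difference of control macrophages from cells alone was -0.47 (SE 0.78, adjusted p = 0.643). Per 100 CPM of macrophage markers Cxcl16 overlapped, at 0.0796 to 3.18 with control and 1.07 to 5.80 with STZ macrophages.

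**Figure D3:**
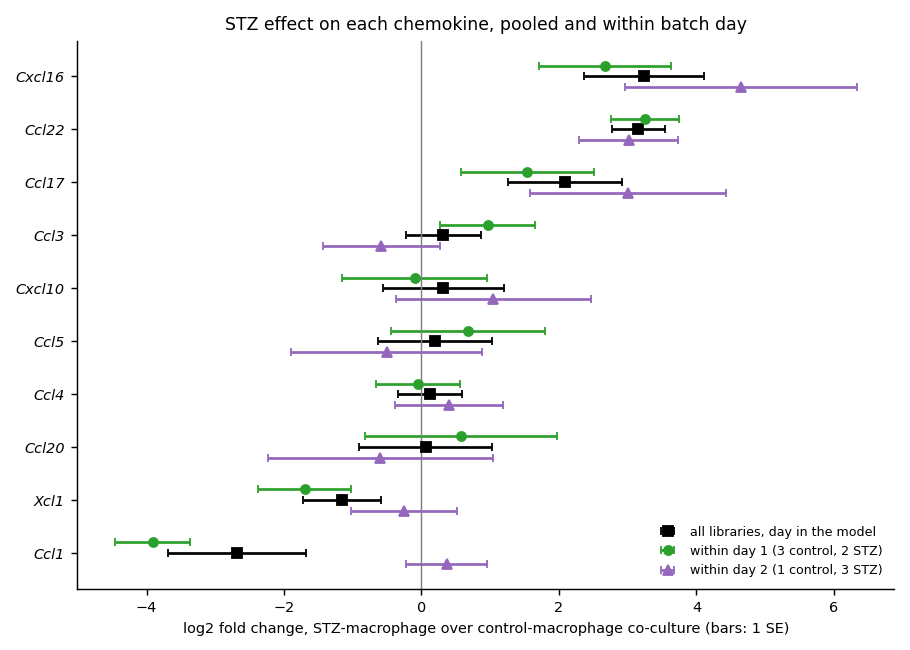
Log2 fold change of each chemokine between STZ-macrophage and control-macrophage co-culture, with bars of 1 SE, over all libraries (squares) and within batch day 1 (circles) and day 2 (triangles). Ccl22 lies at 3.16, 3.25 and 3.01, whereas Ccl1 lies at -3.91 on day 1 and 0.37 on day 2.

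Ccl20, the CCR6 ligand that attracts Th17 cells and dendritic cells, was uneven within groups. Control-macrophage replicates 1, 2 and 4 had 0.827, 0.115 and 0 CPM and replicate 3 had 4.87 CPM. With STZ macrophages it was at 0.172 and 0.749 CPM on day 1 and at 3.47, 1.00 and 5.18 CPM on day 2. The groups overlapped and the log2 difference was 0.07 (SE 0.97, adjusted p = 0.972). Against cells alone it was at least 55.3-fold higher with control and at least 95.3-fold higher with STZ macrophages (adjusted p 0.0147 and 0.0146). The first call was lost without control-macrophage replicate 1 (adjusted p = 0.0502), the second without STZ-macrophage replicate 5 (adjusted p = 0.0596), and both in day 1 libraries alone (adjusted p 0.0575 and 0.0542).

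Cxcl10 encodes an interferon-induced ligand of CXCR3, and its promoter above held the interferon-response letters. It was at 0, 0.800, 2.28 and 0.322 CPM in cells alone. In control-macrophage co-culture it was at 2.93, 5.09 and 4.19 CPM on day 1 and 6.45 CPM on day 2, and with STZ macrophages at 3.38 and 4.21 CPM on day 1 and 13.6, 10.9 and 15.5 CPM on day 2. Every co-culture was above every library of cells alone, which held for 9 of 10 members with STZ and 7 of 10 with control macrophages, beside 21.7% and 22.2% of all genes. The log2 difference from cells alone was 2.09 (SE 0.86, adjusted p = 0.0647) with control and 2.40 (SE 0.96, adjusted p = 0.0604) with STZ macrophages, neither called. With a block for the replicate number the first became 3.47 (adjusted p = 0.0275). Both were called without cells-alone replicate 1 or replicate 3, by DESeq2 (adjusted p 0.0207 and 0.0106) and with no day term (adjusted p 0.0462 and 0.00822), and the second with RLE size factors (adjusted p = 0.0498). The adjusted p ran up to 0.137 and 0.162 over the alternatives. Between co-cultures the difference was 0.31 (SE 0.88, adjusted p = 0.836).

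By level per kilobase of exon, the order in control-macrophage co-culture was Ccl3 (10.1 ± 15.4 CPM per kb, SD, n = 4), Ccl4 (7.16 ± 5.44), Xcl1 (5.63 ± 5.73), Ccl1 (5.04 ± 1.89), Ccl5 (4.12 ± 3.18), Cxcl10 (2.07 ± 0.659), Ccl20 (1.02 ± 1.63), Ccl22 (0.473 ± 0.556), Ccl17 (0.265 ± 0.169) and Cxcl16 (0.0854 ± 0.0438). In STZ-macrophage co-culture it was Ccl3 (15.1 ± 9.88, n = 5), Ccl4 (13.2 ± 7.93), Xcl1 (7.41 ± 6.90), Ccl22 (7.06 ± 5.001), Ccl5 (5.18 ± 1.82), Ccl1 (4.97 ± 4.40), Cxcl10 (4.22 ± 2.43), Ccl17 (2.57 ± 2.24), Ccl20 (1.49 ± 1.497) and Cxcl16 (0.598 ± 0.106). Neighbours in either order differed by less than the larger of their SDs, except Ccl17 and Cxcl16 in control-macrophage co-culture. Ccl22 was eighth in the first order and the fourth in the second. Cells alone held Ccl5 (3.84 ± 4.86, n = 4), Cxcl10 (0.378 ± 0.448) and Cxcl16 (0.125 ± 0.0923), with Ccl3 at 0.0219 ± 0.0438 and the other members at 0.

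Several members were higher in the libraries of batch day 2. In a comparison chosen after the values were seen, the day term of the same fit, 3 of 10 members were called higher on day 2 and none lower, beside 2.10% of all genes called higher and 1.05% lower. They were Ccl3 (log2 difference 2.87, SE 0.56, adjusted p = 0.0325), Ccl22 (2.56, SE 0.36, adjusted p = 0.0257) and Xcl1 (3.22, SE 0.58, adjusted p = 0.0342). The calls rested on many libraries, since each was kept in 5 of 13 fits that left out 1 library, with adjusted p up to 0.171, 0.163 and 0.177; leaving out any co-culture library but control-macrophage replicate 4 ended all 3. The fit of the 9 co-cultures alone called 8 members, adding Ccl1, Ccl4, Ccl17, Ccl20 and Cxcl10 (adjusted p 0.0173 to 0.0438). In that fit 13.3% of all genes were called higher and 16.3% lower. DESeq2 called 6 members, adding Ccl1, Ccl4 and Ccl20, beside 6.53% of all genes called higher and 10.3% lower. Limma called none of the 8 members in the deposited log2 values (adjusted p of at least 0.438), nor any other gene. Those values had been adjusted in an unstated way that may already have reduced differences between days. The limma fit therefore cannot serve as a check on the day calls. Of 18 tested macrophage markers 1 was called higher on day 2, Lyz2 (2.83, adjusted p = 0.0446), and 17 had a positive difference. Day 2 holds co-cultures only, 1 of 4 with control macrophages, so the day and the make-up of the cultures are partly entangled. Their parts in these differences were not tested.

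Receptors of the members rose with co-culture but were not called between STZ and control macrophages. Of 7 receptor genes 6 were tested, and 6 of 6 were called higher in both co-cultures than in cells alone. Of all genes, 23.1% were called higher with control and 20.8% with STZ macrophages. Ccr4, the receptor of CCL17 and CCL22, was at 0.0921 to 7.36 CPM in cells alone, 94.4 to 160 CPM with control and 81.3 to 159 CPM with STZ macrophages (log2 difference from cells alone 4.86, SE 0.77, adjusted p = 2.73e-04, and 4.65, SE 0.79, adjusted p = 4.87e-04). Ccr8, the receptor of CCL1, was at 26.9 to 50.8 CPM with control and 14.0 to 46.7 CPM with STZ macrophages, its lowest libraries being the day 1 STZ-macrophage ones that were also lowest in Ccl1. Cxcr3, the receptor of CXCL10, was at 73.6, 162, 209 and 156 CPM with control and 69.2 to 86.5 CPM with STZ macrophages (log2 difference -1.03, SE 0.80, adjusted p = 0.424). Cxcr6 rose from 4.00 to 18.2 CPM in cells alone to 63.5 to 140 CPM and 54.3 to 66.1 CPM. Ccr6 and Ccr1 had no count in cells alone and reached 2.89 and 5.42 CPM, and Xcr1, the receptor of XCL1, stayed under 0.473 CPM and was not tested.

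**Figure D4:**
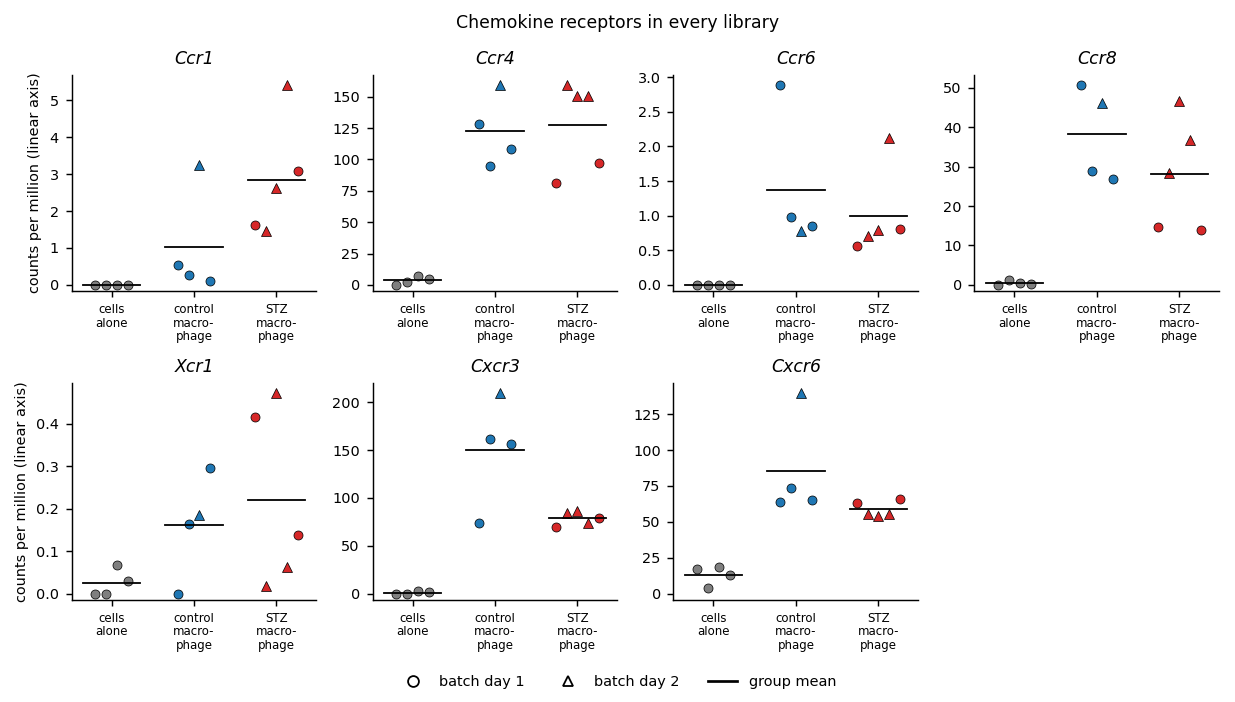
Level in CPM (linear axes) of the 7 receptors in the 13 libraries; circles are batch day 1, triangles batch day 2, and lines are group means. Ccr4 is at 81.3 to 160 in the co-cultures and at most 7.36 in cells alone, and Xcr1 stays under 0.473.

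Among 15 other chemokine receptors 9 were tested. Against cells alone, 2 were called higher and 4 lower with control macrophages, beside 23.1% and 22.0% of all genes. With STZ macrophages 2 were called higher and 3 lower, beside 20.8% and 22.3%. The higher ones were Ccr2, a receptor of effector and monocytic cells, which went from no count in cells alone to 46.8 to 67.7 CPM and 17.7 to 35.9 CPM, and Ccrl2. The lymph node homing receptor Ccr7 fell by 0.49 (adjusted p = 0.0312) and by 0.91 (adjusted p = 0.00191) on the log2 scale with control and STZ macrophages, from 837 to 1436 CPM in cells alone. Cxcr4 fell by 2.39 and by 3.02 (adjusted p 1.40e-04 and 3.68e-05), and Ccr9 also fell in both. Ccr2 was lower in every STZ than in every control library (log2 difference -0.93, SE 0.26, adjusted p = 0.147), and no receptor was called between the co-cultures.

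Of 30 other chemokine ligands, 9 had no count in any library and 8 were tested. Called higher than in cells alone were 3 with control and 5 with STZ macrophages, beside 23.1% and 20.8% of all genes. With both, 1 was called lower, beside 22.0% and 22.3%. Ccl2, Ccl7 and Ccl9, monocyte attractants typical of macrophages, had no count in cells alone. Ccl2 was at 0.103, 0.312 and 0.363 CPM on day 1 and 1.94 CPM on day 2 with control macrophages, and at 1.52 to 7.26 CPM with STZ macrophages. Ccl7 was at 0 to 2.62 CPM and 1.45 to 13.8 CPM. Ccl2 and Ccl7 overlapped between the groups, and neither was called between co-cultures (log2 difference 2.06, adjusted p = 0.136, and 2.81, adjusted p = 0.148). Per 100 CPM of macrophage markers Ccl2 overlapped (0.955 to 2.91 and 2.57 to 15.9), whereas Ccl7 did not (0 to 3.38 and 3.88 to 8.73). Ccl25, the most abundant of these ligands, was at 5.07 to 20.2 CPM in cells alone and 5.66 to 11.6 CPM in co-culture. Ccl27a, which has near-identical copies among which reads may be split, was lower with both (adjusted p 0.00464 and 0.0177).

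The macrophage markers themselves gave 0 calls between STZ and control macrophages by edgeR, with 17 of 18 tested above 0. Of the 18, 5 had an unadjusted p below 0.05, as had 22.8% of all genes, and 4 were higher with no overlap, as were 2.46%. Against cells alone 6 of 18 were called higher with control and 9 with STZ macrophages, beside 23.1% and 20.8% of all genes. Csf1r, the receptor that maintains macrophages, was at 0.0660 to 0.758 CPM with control and 1.13 to 5.66 CPM with STZ macrophages (log2 difference 2.29, SE 0.76, adjusted p = 0.159). C1qa was at 0.131 to 1.88 and 1.69 to 7.09 CPM, and Adgre1 at 0.172 to 4.78 and 0.686 to 4.56 CPM. Ccl3, Ccl4, Ccl5, Ccl17, Ccl20, Ccl22, Cxcl10 and Cxcl16 are the members named above as macrophage products, which carried-over macrophages could supply. Ccl1, made by some myeloid cells as well as by T cells, may be another. The part of carried-over macrophages in the calls was not tested.

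The genes with profiles most like each member were sought over the 9 co-cultures, among the 8139 genes whose average reached 3 on the log2 CPM scale, by the root mean square difference of standardised log2 CPM. Nearest were Wdr73 to Ccl1 (0.195), Ggta1 to Ccl3 (0.205), mt-Nd5 to Ccl5 (0.320) and Akt1 to Ccl17 (0.409). Arl14ep was nearest to Ccl20 (0.298), Aldh7a1, Ramp3 and Bhlhe40 to Ccl22 (0.242, 0.258 and 0.302), and Rpl3 to Xcl1 (0.174). Tmem199 was nearest to Cxcl10 (0.222), 4930430F08Rik to Ccl4 (0.237), and Gys1, Gpi-ps and Gpi1 to Cxcl16 (0.122, 0.168 and 0.178). With 9 libraries, such a likeness describes this set of libraries, which share the batch day and the macrophages' origin.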

How the data were processed

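Members and gene lists were chosen with earlier results of these data known. The authors deposited estimated counts per gene, not normalized (11.0% of values were not whole), which were rounded for testing. Each column was matched to its library through the labels. Repeated symbols (407 entries) were not merged. Per the labels' protocols, 10 ng of RNA per sample, of integrity above 8.0, was amplified by template switching without strand marking, read in pairs of 150 bases and aligned to GRCm38. DESeq2 appears in the submitters' processing notes, with no version. Aligner, counter and annotation were not given in the sources used here. A further file that the authors deposited holds log2 values of 12236 genes, which had been adjusted in a way the labels leave unstated. They hold 8 members and were used as an alternative, with limma 3.58.1.

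The main test was edgeR 4.0.16 (R 4.3.3): filterByExpr by group, TMM, terms for group and batch day over all 13 libraries, the robust quasi-likelihood F test, Benjamini-Hochberg adjustment over all 15781 genes, and calls below 0.05. SE was derived from the fold change and F. DESeq2 1.42.0 was an alternative, as were other scalings, no filter, no day term, subsets of libraries and each library left out. Where a group had no count, folds are bounds against 3 counts in that whole group, and with 1 to 3 counts they are pooled ratios with an exact interval. Bounds and ratios hold no day term, unlike the adjusted p beside them. Reads carry no molecular identifiers, so both kinds of fold cover counting error only. On simulated data, the test recovered 95.8% of 4-fold and 22.2% of 2-fold changes for STZ against control macrophages, over 15516 genes. The simulation gave every gene the same spread and no day effect, so these shares need not hold for the members. In the data Cxcl16, at a log2 difference of 3.24, was not called.

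All 10 members were named in every comparison. Of each other chemokine list, up to 4 called genes per comparison with the smallest p and the 2 most abundant genes could be named, and of the marker lists fixed defining genes. Other genes named were chosen after their values were seen, among them Vsig4, Mertk, Clec9a, Cd209a, Cd207, Cd83, Cacnb3, Cd8b1, Klrk1 and Klrd1. Same-numbered libraries of cells alone and of co-cultures with control macrophages deviated together in 4 of 4 pairs (r = 0.161 to 0.352), so the numbers were taken to pair them, although the labels do not state it and only 2 of 4 matched their own number best. 1 receptor gene is not reported here.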

Additional observations from a re-analysis of the deposited data

Results flagged for a closer look

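Among 24 sets of a member's values in 1 group, a single library stood far from the rest of its group in 4, by Dixon's criterion at 95%. Its chance rate of about 1 in 20 sets is for independent sets of normally spread values, which these CPM need not be. Ccl3 in cells alone was at 0.0671 CPM in replicate 3, a level of 3 counts, and at 0 in the other libraries. Any value beside zeros alone meets the criterion, whatever its size. The other 3 were all control-macrophage replicate 3, the single control library of batch day 2: Ccl3 was at 25.4 CPM beside 3.30 CPM in the next library, Ccl20 at 4.87 CPM beside 0.827 CPM, and Ccl22 at 3.02 CPM beside 0.692 CPM. The summed macrophage markers of that library were also the highest of the control group, at 77.5 CPM, and their part in these values was not tested.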

How the results depend on the processing

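The number of genes called between STZ and control macrophages, 51 with edgeR and TMM, was the least stable value: DESeq2 called 674, limma 88 from the deposited log2 values, the fit of the 9 co-cultures alone 2698, the fit without a day term 19 and day 1 libraries alone 7. It was 0 without both libraries rich in islet endocrine RNA, an alternative chosen after the values were seen. Leaving out 1 library gave 0 to 582 genes, with 0 without control-macrophage replicate 4, STZ-macrophage replicate 1 or STZ-macrophage replicate 5, and 582 without cells-alone replicate 2. The cause was not tested. Against cells alone, leaving out 1 library gave 5745 to 7760 genes with control and 5137 to 8043 with STZ macrophages. For day 2 against day 1, 497 genes became 150 with RLE size factors, 190 with library totals, 246 with no count filter and 2654 with DESeq2. The number was 0 with limma, whose adjusted input may already lack differences between days. It was 4 without the endocrine-rich libraries, 4400 in the 9 co-cultures, and 5 to 2476 with 1 library left out. For the difference between days, 1 gene became 398 with DESeq2 and 0 to 243 with 1 library left out.

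With a block for the replicate number, the pairing called 0 genes between STZ and control macrophages, 3476 between STZ macrophages and cells alone, and 2 between days. For STZ against control macrophages it gave Ccl22 at 3.42 (adjusted p = 0.554), Ccl5 at -0.50 and Ccl20 at -2.10. For STZ macrophages against cells alone it ended the calls of Ccl20 and Cxcl16 (adjusted p = 0.180 and 0.164) and called Cxcl10 (adjusted p = 0.0450). It ended the 3 calls between days and gave Cxcl10 at -0.77 there. For control macrophages against cells alone it gave Ccl5 at 0.48 and, besides that of Cxcl10, changed no other call. Same-numbered libraries deviated together in 2 of 4 pairs of cells alone with STZ-macrophage co-cultures and in 3 of 4 pairs of both co-cultures, so there the libraries share only a number.

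The share of higher calls between STZ and control macrophages was 47.1% with TMM, 68.2% with RLE size factors and 66.7% with library totals, while the median log2 difference of all genes was -0.13, -0.03 and 0.07. Against cells alone it was -0.13, -0.08 and -0.45 with control and -0.05, 0.11 and -0.17 with STZ macrophages. Signs turned in members that were not called. Ccl5 with STZ macrophages against cells alone became 0.12 with RLE or DESeq2, 0.20 with no filter, 0.43 with no day term, 0.45 in day 1 libraries and 0.33 without the endocrine-rich libraries, and with control macrophages 0.10 with no day term. Between STZ and control macrophages Xcl1 became 0.40 with no day term, and Ccl20 -0.091 without the endocrine-rich libraries. Between days, limma on the adjusted log2 values gave Ccl3 at -0.052, although edgeR had called it, and Ccl5 at -0.064. With 1 library left out, STZ against control ran from -0.022 to 1.13 for Ccl3, -0.091 to 0.68 for Ccl4, -0.078 to 0.86 for Ccl5 and -0.70 to 0.91 for Ccl20. Ccl5 ran from -0.68 to 1.13 for control and -0.34 to 1.33 for STZ macrophages against cells alone. The difference between days ran from -3.35 to 0.23 for Ccl20, -0.50 to 0.012 for Ccl22 and -0.038 to 0.84 for Ccl4. Ccl17 and Cxcl16 were filtered out or absent in some alternatives and have no value there. A level under that of 3 counts, which was 0.0493 to 0.133 CPM depending on the library, could not be told from 0.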

Other observations

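The proteases that act on chemokines were measured too. Adam10, which sheds CXCL16 from the membrane, was at 235 and 214 CPM in the day 1 STZ-macrophage libraries and at 60.9 to 159 CPM in the other co-cultures and in cells alone. It was called higher with STZ macrophages than in cells alone (log2 difference 1.08, SE 0.34, adjusted p = 0.0218) and lower on day 2 (-1.32, SE 0.31, adjusted p = 0.0462), by edgeR. Dpp4, which trims the ends of several chemokines, was at 332 to 456 CPM with control and 204 to 296 CPM with STZ macrophages, with no overlap (log2 difference -0.65, SE 0.26, adjusted p = 0.188). Zap70, a T cell signalling kinase chosen after its values were seen, stood apart in the same day 1 STZ-macrophage libraries, at 157 and 139 CPM, beside 15.8 to 24.7 CPM in the other co-cultures, 91.8 CPM in cells-alone replicate 2 and 15.2 to 25.2 CPM in the other cells alone.

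In the authors' deposited log2 table, Cxcl10 was at 0.10, 1.69, 0.71 and 1.15 in the 4 libraries of cells alone and between 10.81 and 12.77 in the co-cultures, where the raw counts gave a log2 difference of 2.09. That table's difference for control macrophages was 10.60 (limma, adjusted p = 2.18e-11). Ccl22, in contrast, differed between STZ and control macrophages by 3.28 in that table (adjusted p = 0.00676) and by 3.16 in the raw counts.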
